A study of Canis lupus familiaris with 25 samples.

Results

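The genes described here encode 10 enzymes that convert steroids or closely related lipids: the steroid reductases SRD5A1, SRD5A2 and SRD5A3, the hydroxysteroid dehydrogenases HSD17B1, HSD17B2, HSD17B11, HSD17B12, HSD11B1 and HSD11B2, and the dehydrogenase/reductase DHRS2. They were chosen by name, with earlier results of these data known. All 10 were found among the 24532 genes of the deposited count table. 5 of them had enough reads to be tested, and the other 5 stayed near the detection limit in most tumors.

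Steroid hormones are switched between weak and potent forms inside their target tissues. Reductases turn testosterone into dihydrotestosterone, the more potent androgen, and pairs of dehydrogenases with opposite directions interconvert estrone and estradiol, androstenedione and testosterone, or cortisone and cortisol. Several of these enzymes also, or mainly, act on other lipids, among them fatty acyl chains and the polyprenols from which dolichol is made. Hepatoid glands are modified sebaceous glands of the dog whose tumors are known to grow under androgens, whereas the apocrine glands of the anal sac are sweat gland derivatives.

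The study counted 3′ end reads in formalin-fixed, paraffin-embedded (FFPE) tumors of privately owned dogs of several breeds. 10 samples were hepatoid gland adenomas (HGA), benign perianal tumors from 6 intact and 4 neutered dogs, 5 of each sex, aged 8 to 14 years. Another 11 were primary apocrine gland anal sac adenocarcinomas (AGASAC), malignant tumors from 2 intact and 9 neutered dogs, 5 female and 6 male, aged 8 to 12.5 years. The last 4 were lymph node metastases, each taken from a dog whose primary AGASAC (1 to 4) was also sequenced, of which 1 was intact and 3 were neutered, aged 8 to 10 years. No sample came from normal gland, and none of the labels names a treatment.

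Reads counted on genes totaled 1562347 to 6389555 in HGA, 2581453 to 4218340 in primary AGASAC and 2857541 to 3289546 in metastases. Levels are given as CPM, counts per 1000000 counts of the library, scaled by TMM factors over all 25 samples, and a library in which a gene had 0 counts could have missed up to 3, or 0.543 to 1.84 CPM in HGA, 0.729 to 1.05 CPM in primary AGASAC and 0.796 to 0.973 CPM in metastases. This range and all other limits of detection cover counting error only. Because 3′ sequencing yields a single tag per transcript, CPM of different genes were compared without a length correction. In these bulk samples, fewer cells of a type and less RNA per cell cannot be told apart.

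The tumor types differed in the markers of their epithelia. The summed level of 8 keratinocyte markers ranged from 3630 to 13595 CPM in HGA and from 89.7 to 248 CPM in primary AGASAC (116 to 219 CPM in metastases), with 6 of 7 tested genes higher in HGA. The sum of 7 luminal gland markers ranged from 409 to 731 CPM in HGA and from 5719 to 11239 CPM in primary AGASAC (5251 to 11408 CPM in metastases), with 7 of 7 lower in HGA. KRT8, a keratin of simple epithelia, reached at most 1 count in any HGA. Some of these markers could be tested only because they were high in 1 tumor type, among them KRT5 and KRT14 in HGA and KRT8 and KRT19 in AGASAC. Over all genes tested, 12.6% were higher and 12.5% lower in HGA. Of 9 fibroblast markers none passed the test between these tumor types (edgeR, with 3 at an unadjusted p under 0.05), and 1 of 9 macrophage markers was lower in HGA. Of 3 adipocyte markers tested, 2 were higher and 1 lower in HGA, 2 of 5 endothelial markers and 1 of 5 smooth muscle markers were higher, the only skeletal muscle marker tested was lower, and the single T cell and B cell markers tested were not called. The part of tissue composition in the enzyme levels was not tested.

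1 adenoma stood apart in the enzymes described here. HGA 10 had the lowest level of DHRS2, SRD5A1, HSD17B12 and HSD11B2 among all HGA, and it was also the only HGA of RNA extraction batch 9 and the only one in the second naming series of the sequencing files. Its RNA quality value (DV200) of 72.8% lay within the range of the other HGA, 70.5% to 92.7%, its 2525485 counts were close to their median, and its keratinocyte and luminal gland marker sums of 5261 and 509 CPM were within the HGA range. Its sums of adipocyte (39.6 CPM), endothelial (196 CPM) and smooth muscle markers (219 CPM) were the lowest of the HGA, which reached 241, 571 and 485 CPM. It also held the lowest HGA value in 636 of the 1523 genes that were higher in HGA, or 41.8%. The main results that it moves are also given without it, and the part of batch in its values was not tested.

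HGA versus AGASAC asked which genes differ between these tumor types. Benign or malignant behavior and gland of origin changed together between them and cannot be told apart here. A gene was called at an adjusted p of at most 0.05 in the quasi-likelihood test of edgeR after Benjamini-Yekutieli (BY) adjustment over all genes tested, and at a log2 fold change (log2FC) of at least 1 in either direction. Of the 12070 genes tested, 25.1% were called, 12.6% higher and 12.5% lower in HGA. DHRS2, SRD5A1, HSD17B12 and SRD5A3 were higher in HGA and HSD11B2 was lower, so that 5 of the 5 enzymes tested were called. DHRS2 had at most 24 counts in any primary AGASAC and could be tested only because it was high in HGA. The median log2FC of the 5 was 3.58, compared with -0.03 over all genes tested. The enzymes were chosen with earlier results of these data known, so this contrast with all genes is a description. SRD5A2, HSD17B1, HSD17B2, HSD17B11 and HSD11B1 had too few counts to be tested, so the count of calls describes only the abundant enzymes.

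**Figure D1:**
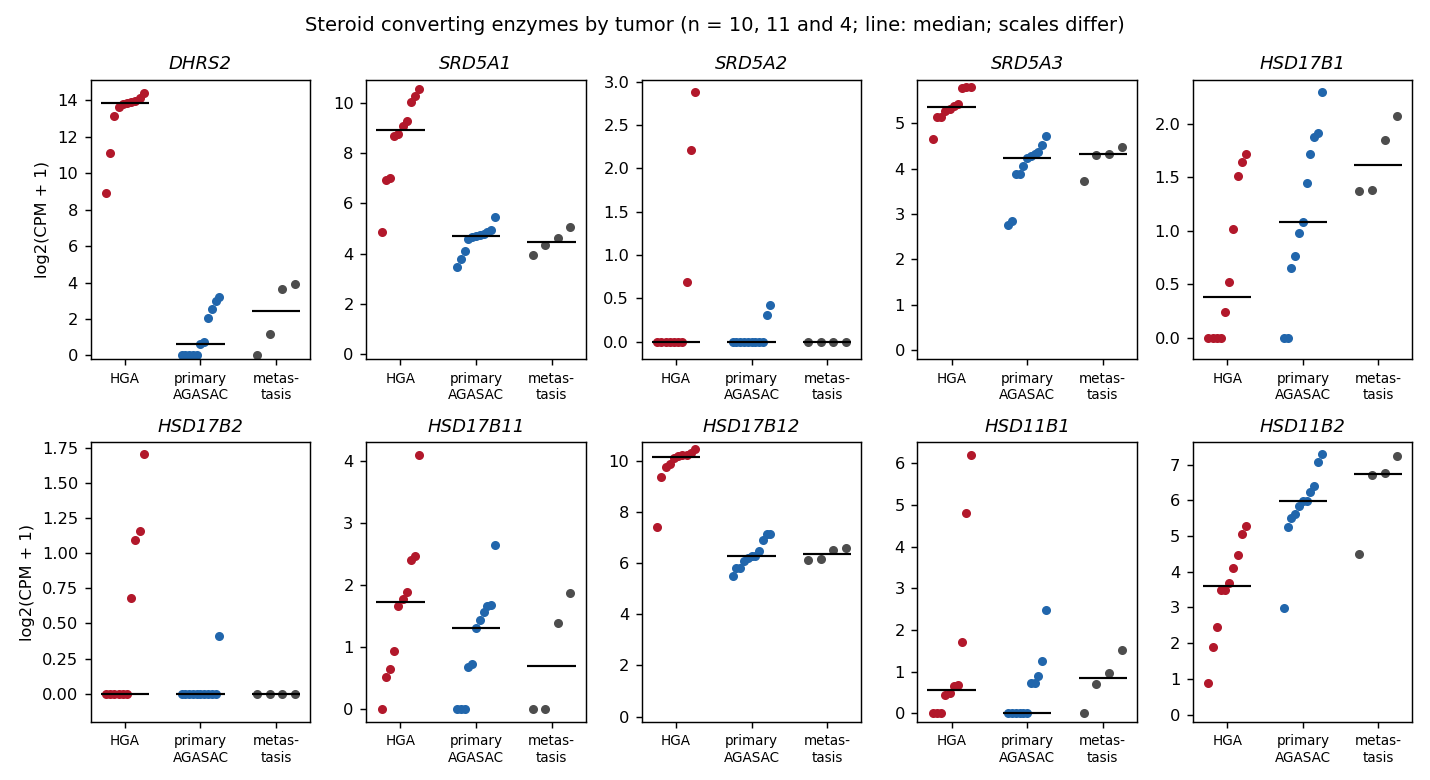
Level of each of the 10 enzymes as log2(CPM + 1) in 10 HGA, 11 primary AGASAC and 4 metastases, 1 point per sample, with the group median as a line and a separate scale for each gene. DHRS2 and HSD17B12 show no overlap between HGA and AGASAC, HSD11B2 is lower in most HGA, and the 5 enzymes that were not tested stay near 0 in most samples.

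DHRS2 encodes a short-chain dehydrogenase/reductase that reduces dicarbonyl compounds and whose main substrate in tissue is not settled. It ranged from 489 CPM in HGA 10 to 21885 CPM in HGA 9, with a median of 14618 CPM. In primary AGASAC it ranged from 0 to 8.33 CPM, with a median of 0.556 CPM and 0 counts in 5 of 11 tumors. The lowest HGA was thus far above the highest AGASAC. The mean was 12478 ± 6718 CPM (SD, n = 10) in HGA and 2.21 ± 3.1 CPM (n = 11) in primary AGASAC. In HGA, DHRS2 ranked 3 among all genes by mean level and took up 1.2% of all counts, from 0.0451% in HGA 10 to 2.07% in the highest tumor. Its log2FC of 12.49 (SE 1.00, edgeR, BY-adjusted p = 7.00e-09) was the 5th largest rise of the 12070 genes. Groups without overlap occurred in 9.13% of all genes tested, and in 4.37% with HGA as the higher group.

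The 3 steroid reductases differed from each other in both level and contrast. SRD5A1, the reductase of skin and liver that makes dihydrotestosterone, ranged from 28 CPM in HGA 10 to 1512 CPM in HGA 8, with a median of 487 CPM. In primary AGASAC it ranged from 9.96 to 43.2 CPM, with a median of 25.1 CPM. HGA 10 was the only HGA inside the AGASAC range, and the lowest of the other 9 HGA, HGA 2, had 122 CPM. With means of 606 ± 503 CPM (n = 10) and 24.1 ± 9.05 CPM (n = 11), SRD5A1 was 25.6-fold higher in HGA (log2FC 4.68, SE 0.51, edgeR, BY-adjusted p = 9.16e-07). The fit without HGA 10 gave a log2FC of 4.82.

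SRD5A2, the reductase best known from the prostate, was detected in 3 HGA only, with 15 counts in HGA 9, 12 counts in HGA 7 and 1 count in HGA 4. These were 6.36, 3.64 and 0.615 CPM, and all 3 tumors came from intact male dogs, whereas HGA 6, the other intact male, had 0 counts in a library of 5914236. It had 0 counts in the other 7 HGA and in all 4 metastases, and 1 count each in AGASAC primary tumors 6 and 11. SRD5A2 was not tested at these counts. With no filter on low counts its log2FC was 3.53 (SE 1.13, edgeR, BY-adjusted p = 0.183), and it was not called.

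SRD5A3, which acts in the synthesis of dolichol, the lipid carrier of protein glycosylation, had the flattest distribution of the abundant enzymes. It ranged from 24.3 to 55.1 CPM in HGA, with a median of 40.1 CPM, and from 5.74 to 25.3 CPM in primary AGASAC, with a median of 17.8 CPM. The groups met at a single point, since the lowest HGA, HGA 7, lay below the highest AGASAC, primary tumor 5. Means were 41.7 ± 10.2 CPM (n = 10) and 16.1 ± 6.03 CPM (n = 11), a 2.64-fold rise in HGA (log2FC 1.40, SE 0.23, edgeR, BY-adjusted p = 0.000231). HGA 10, the lowest HGA for SRD5A1, was not low here with 39.1 CPM.

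Of the HSD17B enzymes among the 10 described here, HSD17B12 alone was abundant. It reduces ketoacyl chains during the elongation of fatty acids and can also convert estrone to estradiol. Its level ranged from 169 CPM in HGA 10 to 1419 CPM in HGA 6, with a median of 1143 CPM. In primary AGASAC it ranged from 44.4 to 141 CPM, with a median of 76.7 CPM. All HGA lay above all primary AGASAC, by a narrow margin in HGA 10 and by more than the whole AGASAC range in the other 9, of which the lowest had 652 CPM. Means of 999 ± 366 CPM (n = 10) and 84.8 ± 33.3 CPM (n = 11) gave a log2FC of 3.58 (SE 0.29, edgeR, BY-adjusted p = 1.03e-08), or 12.0-fold.

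HSD17B1, which makes estradiol, reached at most 2.28 CPM in HGA and 3.92 CPM in primary AGASAC, with at most 13 counts in any tumor. HSD17B2, which oxidizes estradiol and testosterone to weaker forms, had 0 counts in 6 of 10 HGA, 10 of 11 primary AGASAC and 4 of 4 metastases, and its highest level was 2.26 CPM in HGA 2. Both were at or near the limit of detection, so no difference between tumor types could be measured. HSD17B11, a dehydrogenase located at lipid droplets, was higher in HGA 9, with 38 counts or 16.1 CPM, than in any other sample. In the other 9 HGA it ranged from 0 to 4.52 CPM and in primary AGASAC from 0 to 5.24 CPM. With no filter on low counts, the log2FC was -0.98 (SE 0.85) for HSD17B1, 2.95 (SE 0.96) for HSD17B2 and 1.18 (SE 0.80) for HSD17B11, and none of them was called by edgeR.

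The 2 enzymes that interconvert cortisol and cortisone were distributed differently. HSD11B2, which inactivates cortisol and thereby shields the mineralocorticoid receptor, ranged from 0.860 CPM in HGA 10 to 38.2 CPM in HGA 9, with a median of 11.2 CPM. In primary AGASAC it ranged from 6.89 CPM in primary tumor 6 to 157 CPM in primary tumor 1, with a median of 62.4 CPM. The groups overlapped, although only 2 of the 11 AGASAC lay below the highest HGA. Means were 14.9 ± 12.5 CPM (n = 10) and 69.5 ± 42.8 CPM (n = 11), and HSD11B2 was 4.54-fold lower in HGA (log2FC -2.18, SE 0.50, edgeR, BY-adjusted p = 0.0086). In neutered dogs alone the log2FC was -2.63, with an adjusted p of 0.187 in the same edgeR test, so the call was lost.

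HSD11B1, which regenerates cortisol, was at or below 2.26 CPM in 8 of 10 HGA, including 0 counts in 3. The other 2 were HGA 10, with 168 counts or 72.2 CPM, and HGA 4, with 44 counts or 27.1 CPM. In primary AGASAC it ranged from 0 to 4.57 CPM, with 0 counts in 6 of 11. With no filter on low counts the log2FC was 3.76 (SE 1.18, edgeR, BY-adjusted p = 0.160), carried by those 2 adenomas. HGA 10 and HGA 4 were also the lowest and the next lowest in DHRS2, with 489 and 2224 CPM, and HGA 4 had the smallest library.

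**Figure D2:**
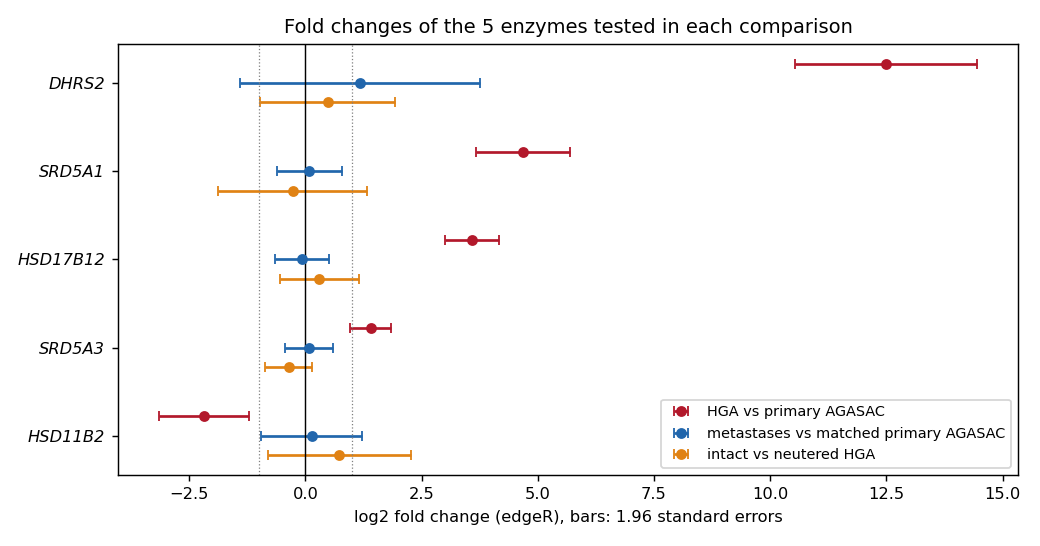
Log2 fold change of the 5 enzymes tested, from edgeR, in HGA relative to primary AGASAC, in metastases relative to the primary AGASAC of the same dogs, and in HGA of intact relative to neutered dogs. Bars are 1.96 standard errors to each side and dotted lines mark a log2 fold change of 1. All 5 intervals of the first comparison exclude 0, and all 10 intervals of the other comparisons include it.

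Extraction batch and neuter status were not balanced between the tumor types, and the values within batches were therefore computed. With batch as a covariate, or with sex and neuter status as covariates, the same 5 enzymes were called. The 3 batches that held at least 2 tumors of each type were batch 5 (3 HGA and 3 primary AGASAC), batch 6 (3 and 2) and batch 8 (2 and 3). HSD17B12 was called in each of them, with log2FCs of 2.94, 3.96 and 4.54, and so was DHRS2, although the 3 AGASAC of batch 5 had 0 counts of it and its log2FC has no fixed size there. The DHRS2 values in batches 6 and 8 were 13.02 and 11.31. SRD5A1 had log2FCs of 5.24, 4.8 and 4.21 and was called in batch 8 only. SRD5A3 had log2FCs of 1.56, 1.91 and 0.79 and HSD11B2 of -1.70, -1.69 and -2.91, with no call for either in any single batch. Without HGA 4 and HGA 10, 5 of 5 enzymes were again called. All 5 were also called within the first naming series of the sequencing files, which held 9 HGA but only 3 primary AGASAC. The second series held 1 HGA and 7 primary AGASAC, so the series was not balanced between the tumor types either.

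The levels of the enzymes also varied within HGA. SRD5A1 varied most in relative terms among the called enzymes that were higher, spanning 28 to 1512 CPM, and did not follow DHRS2: HGA 2, with the third highest DHRS2 at 15791 CPM, had only 122 CPM of SRD5A1, whereas HGA 8, with 1512 CPM of SRD5A1, had 9180 CPM of DHRS2. Of 16 relations between 2 enzymes within a tumor type, 10 in HGA and 6 in primary AGASAC, 1 had a Benjamini-Hochberg adjusted p below 0.05. Across the 10 HGA, SRD5A1 and HSD17B12 had a Pearson r of 0.853 (permutation p = 0.00264, adjusted p = 0.0422) and Spearman's rho was 0.636 (permutation p = 0.0543, adjusted p = 0.603). Without HGA 10 and HGA 2, the 2 samples farthest from the SRD5A1 median, r was 0.678.

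DHRS2 and HSD17B12 had an r of 0.917 across the 10 HGA (permutation p = 0.00869, two-sided) and a rho of 0.394 (p = 0.264, permutation). Without HGA 10 and HGA 4 the r was -0.28, so this relation rested on those tumors. The r of DHRS2 and SRD5A1 likewise changed from 0.754 to -0.51 without the same tumors.

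**Figure D3:**
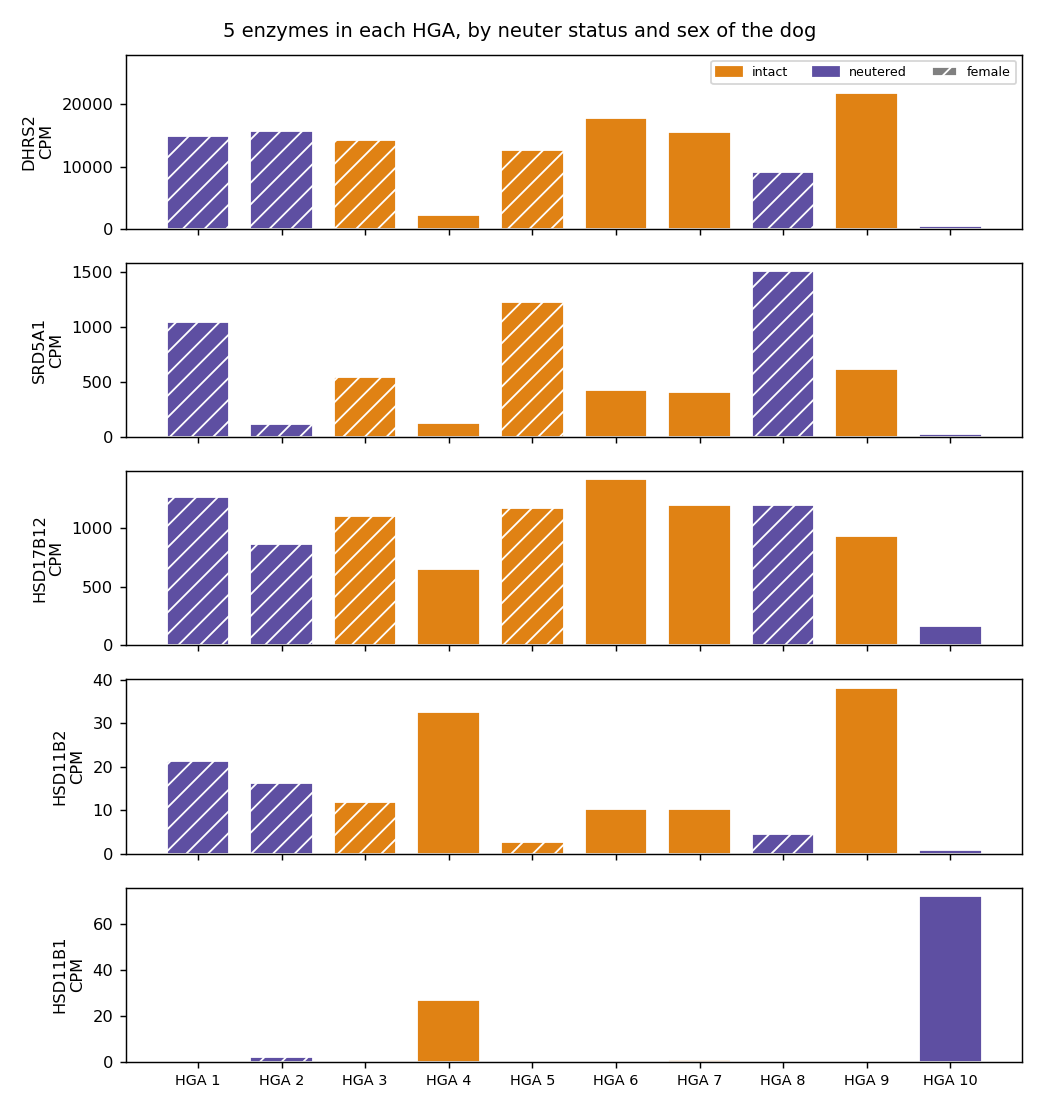
Level in CPM of DHRS2, SRD5A1, HSD17B12, HSD11B2 and HSD11B1 in each of the 10 HGA, with bars colored by neuter status and hatched for female dogs. HGA 10 has the lowest bar for the first 4 enzymes and the highest for HSD11B1, at 72.2 CPM.

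HGA of intact and of neutered dogs were compared because hepatoid gland tumors respond to androgens. HGA 10 was the only neutered male, so sex was not balanced between these groups. No enzyme was called: 0 of 5, against 0% of the 11906 genes tested, and DESeq2 called 0 as well. An unadjusted p under 0.05 in edgeR was found for 0 of 5 enzymes and 9.8% of all genes. SRD5A1 had a mean of 560 ± 368 CPM in 6 intact and 677 ± 721 CPM in 4 neutered dogs, with a log2FC of -0.28 and an interval of -1.88 to 1.32. The sign of this value depended on the fit, with a log2FC of 1.07 (SE 1.02) with sex as a covariate, 0.55 without HGA 8 and -0.67 without HGA 10. DHRS2 had means of 14057 ± 6623 and 10111 ± 7058 CPM (log2FC 0.48, interval -0.97 to 1.93), and its log2FC was 0.08 without HGA 10 and 1.25 (SE 1.09) with sex as a covariate. HSD17B12 had a log2FC of 0.30 (interval -0.55 to 1.16), which was -0.04 without HGA 10. SRD5A3 had a log2FC of -0.36 (interval -0.87 to 0.14) and HSD11B2 of 0.73 (interval -0.81 to 2.27), or 0.35 without HGA 10. The groups overlapped for all 5, whereas 2.62% of all genes had none, and the intervals leave room for differences of more than 2-fold in 4 of the 5 enzymes.

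HGA of female and male dogs were compared after the values had been seen, without a term for neuter status. Sex and neuter status were not balanced among the HGA, since HGA 10 was the only neutered male. SRD5A1 ranged from 122 to 1512 CPM in 5 females and from 28 to 616 CPM in 5 males, with means of 891 ± 555 and 322 ± 240 CPM. The groups overlapped, and the log2FC of 1.45 (SE 0.72) did not pass edgeR's test with BY adjustment (unadjusted p = 0.0651, adjusted p = 1). Without HGA 10, a male, it was 1.16 (SE 0.60). None of the other 4 enzymes was called either, against 0.0176% of the 11392 genes tested.

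Metastases were compared with the primary AGASAC of the same 4 dogs. None of the 5 enzymes tested was called, against 0% of the 12629 genes tested, and DESeq2 called none of them. An unadjusted p under 0.05 in edgeR was found for 0 of 5 enzymes and 1.15% of all genes. SRD5A1 had 16.3, 26.8, 12.8 and 28.4 CPM in primary tumors 1 to 4 and 19.1, 23.6, 14.5 and 32.3 CPM in the metastases of the same dogs. The order of the dogs was the same in both, and the log2FC was 0.09 (interval -0.62 to 0.79). HSD17B12 had 72.3, 55.2, 138 and 76.7 CPM in the primary tumors and 70.7, 68.2, 91.0 and 96.2 CPM in the metastases, with a log2FC of -0.07 (interval -0.65 to 0.50). SRD5A3 had 13.9, 18.3, 15.7 and 19.7 CPM against 19.1, 21.2, 12.2 and 18.8 CPM (log2FC 0.08, interval -0.43 to 0.59). For these 3 enzymes the intervals exclude a change of 2-fold in either direction in this fit, which had no term for the dog. With the dog as a replicate block, the log2FCs of SRD5A1, HSD17B12 and SRD5A3 were 0.10, -0.006 and 0.06.

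HSD11B2 moved in different directions in single dogs. It had 157, 44.4, 62.6 and 83.1 CPM in primary tumors 1 to 4 and 150, 108, 104 and 21.4 CPM in their metastases, so that it was higher in the metastasis of dogs 2 and 3 and lower in that of dog 4 (log2FC 0.14, interval -0.95 to 1.22). DHRS2 had 4.82, 6.86, 0 and 0.556 CPM in the primary tumors and 1.3, 11.4, 0 and 14.4 CPM in the metastases. The highest value corresponded to 45 counts in metastasis 4, against 2 counts in its primary tumor, and the log2FC was 1.18 (interval -1.40 to 3.76). SRD5A2 and HSD17B2 had 0 counts in 4 of 4 metastases, HSD17B1 had 5 to 10 counts, HSD11B1 0 to 7 and HSD17B11 0 to 10.

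**Figure D4:**
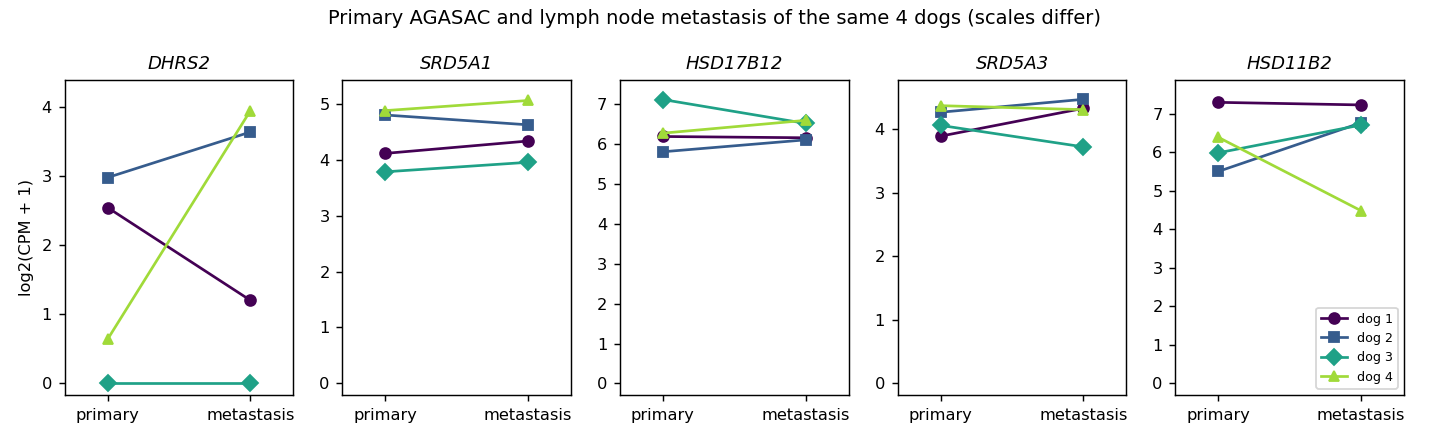
Level of the 5 tested enzymes as log2(CPM + 1) in the primary AGASAC and the lymph node metastasis of 4 dogs, with a line per dog and a separate scale for each gene. SRD5A1, HSD17B12 and SRD5A3 show no common direction over the dogs, with HSD17B12 in dog 3 falling from 138 to 91.0 CPM, while DHRS2 rises in dog 4 from 0.556 to 14.4 CPM and HSD11B2 falls in dog 4 from 83.1 to 21.4 CPM.

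Metastases were also set against HGA. This comparison shares its HGA with HGA versus AGASAC, and its metastases come from 4 of the AGASAC dogs. Of the 13195 genes tested, 16.1% were called, 7.69% higher and 8.4% lower in metastases, and 5 of 5 enzymes were. DHRS2 (log2FC -10.84, SE 1.43), SRD5A1 (-4.77, SE 0.92), HSD17B12 (-3.63, SE 0.45) and SRD5A3 (-1.24, SE 0.25) were lower in metastases, and HSD11B2 (2.65, SE 0.61) was higher. The groups did not overlap for DHRS2, HSD17B12 and SRD5A3, as in 7.38% of all genes tested in that direction. SRD5A3 and HSD11B2 depended on single libraries. HSD11B2 kept its call in 4 of the 14 fits that each left out a library, those without metastasis 4, HGA 4, HGA 9 or HGA 10, with log2FCs of 2.38 to 2.98 over all 14 and adjusted p of 0.0506 to 0.165 (edgeR, BY) in the 10 without a call. SRD5A3 lost its call without metastasis 1, 3 or 4, at a log2FC of -1.26, -1.1 and -1.27 (edgeR, BY-adjusted p = 0.0561, 0.0841 and 0.0514).

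Other genes of the same pathways were examined from lists of related enzymes, receptors and target genes. Of 35 other genes of steroid synthesis and conversion, 22 were found in the table by name and 15 could be tested. 4 were higher in HGA, 1 was lower and 10 were not called, against 12.6% higher and 12.5% lower of all genes tested. The median log2FC of 0.20 was close to that of all genes, -0.03. HSD3B2, which catalyzes the step from pregnenolone-type to progesterone-type steroids, ranged from 18.5 to 275 CPM in HGA and had 0 counts in all 11 primary AGASAC and 4 metastases. Set against a limit of 3 counts in the shallowest AGASAC library, its mean of 107 CPM was at least 102-fold higher in HGA (edgeR, BY-adjusted p = 1.69e-07). HSD3B2 could be tested only because it was high in HGA. HSD17B14 (log2FC 3.68) and HSD17B6 (log2FC 3.43), both oxidizing dehydrogenases, and TSPO (log2FC 3.57), a mitochondrial protein that binds cholesterol, were the other 3 that rose. HSD17B6 was outside the rule for named genes and is given because the count is small. CYB5A, the cytochrome b5 that assists several steroid hydroxylases, had a log2FC of -1.84, from 151 ± 69.2 CPM in AGASAC (n = 11) to 41.4 ± 14.6 CPM in HGA (n = 10). STAR, CYP19A1 and HSD17B3, the transport protein, aromatase and testicular dehydrogenase of hormone synthesis, had at most 4 counts in any sample and were not tested.

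Among the receptors of the hormones that these enzymes act on, ESR1 and NR3C1 were higher in HGA. The estrogen receptor ESR1 ranged from 84.0 to 249 CPM in HGA and from 0.287 to 28.1 CPM in primary AGASAC (log2FC 3.98, SE 0.52, edgeR, BY-adjusted p = 1.18e-05). The glucocorticoid receptor NR3C1 had a log2FC of 1.60 and was called, and the mineralocorticoid receptor NR3C2, at 117 ± 38.4 CPM in HGA (n = 10) and 78.9 ± 45.0 CPM in AGASAC (n = 11), had a log2FC of 0.60 and was not. ESR2 and the progesterone receptor PGR were not tested, and PGR had 0 counts in 10 of 10 HGA.

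Relatives of DHRS2 in the dehydrogenase/reductase family included 10 of 18 tested that were higher and 0 that were lower, against 12.6% and 12.5% of all genes, with a median log2FC of 1.31. RDH12 (log2FC 10.45) and RDH16 (log2FC 7.40), which convert retinol and retinal or related alcohols, and DHRS4 (log2FC 6.93), a peroxisomal carbonyl reductase, showed the largest rises. RDH12 and RDH16 both had a median of 0 CPM in primary AGASAC and could be tested only because they were high in HGA. The same holds for SDR16C5 and HPGD, outside the rule for named genes, with medians of 1.04 and 0.603 CPM there. The count of calls in this list is therefore a description. DHRS4 averaged 2692 ± 1646 CPM in HGA (n = 10) and 22.4 ± 8.99 CPM in primary AGASAC (n = 11), but its lowest HGA had 3.87 CPM. In 9 of these 10 genes HGA 10 was the lowest HGA, compared with 41.8% of all genes that were higher in HGA.

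HSD17B12 works in a complex cycle with elongases, dehydratases and a final reductase. Of 9 tested genes of that cycle, 4 were higher and 1 was lower in HGA, against 12.6% and 12.5% of all genes tested. Their median log2FC was 1.27. The elongase ELOVL5 rose from 24.2 ± 28.7 CPM in AGASAC to 8229 ± 5033 CPM in HGA (log2FC 8.42), the dehydratase HACD2 had a log2FC of 4.23 and TECR, the reductase of the last step, of 2.22. HACD3 (log2FC 1.68) was the fourth that rose and lies outside the rule for named genes. The elongase ELOVL1 fell (log2FC -1.22). Of 7 genes of dolichol synthesis, in which SRD5A3 acts, DHDDS (log2FC 1.90) and DOLK (log2FC 1.55) were higher and DOLPP1 (log2FC -1.21) was lower. The other 4 were not called, and the median was 0.75. This count stands beside the same shares of all genes, 12.6% higher and 12.5% lower.

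Genes that glucocorticoids are known to induce were split. Of 9 tested, 3 were higher (ZBTB16, log2FC 4.19, FKBP5, 2.93, and DUSP1, 1.33) and 2 were lower in HGA (MT2A, log2FC -3.42, and SGK1, -3.02), and the median was 0.18. Of 5 tested genes that androgens are known to induce, 3 were higher, SLC45A3 (log2FC 4.96), FKBP5 (2.93) and NDRG1 (1.75), with a median of 1.75. FKBP5 stands in both lists. Over all genes tested, 12.6% were higher and 12.5% lower in HGA. SLC45A3, with a median of 1.34 CPM in primary AGASAC, could be tested only because it was high in HGA. With library size alone as the scaling, the median of all genes shifted from -0.03 to -0.33. The calls of the 5 steroid-converting enzymes and the directions of all called genes in these lists were the same, while DUSP1 and DHRS7B, another relative of DHRS2, were no longer called and TSC22D3, H6PD and HACD4 were called as lower in HGA. Of the markers, CDH5 and CLDN5, the 2 endothelial genes that were higher, were no longer called.

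**Figure D5:**
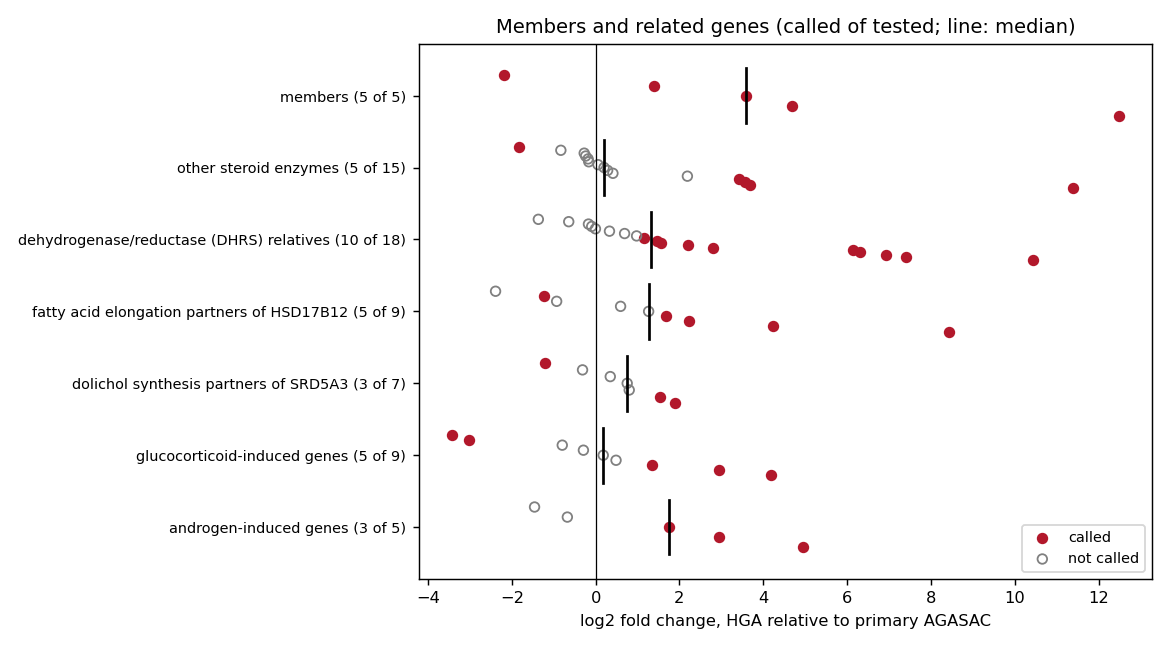
Log2 fold change of HGA relative to primary AGASAC for the 5 enzymes tested (members) and 6 lists of related genes, 1 point per gene, filled where called, with the list median as a line. The enzymes have a median of 3.58, the DHRS relatives of 1.31, and the other steroid enzymes of 0.20, with HSD3B2 at the far right of that row.

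The genes whose levels were most like DHRS2 over all 25 samples, by Pearson r of log2(CPM + 1), were KRT79 (0.978), a keratin, HAO2 (0.978), a peroxisomal oxidase of hydroxy acids, and LGALS7 (0.977), a galectin of stratified epithelium. These values are a description and hold the contrast of HGA with AGASAC, since KRT79 and HAO2 had 0 counts in primary AGASAC. Within the 10 HGA the values were 0.926, 0.865 and 0.910, and without HGA 4 and HGA 10 they were 0.662, 0.771 and 0.689. The genes most like HSD11B2 were C1H9orf64 (0.867), TEAD2 (0.834), a transcription factor of the Hippo pathway, and DMPK (0.832), a protein kinase, with 0.847, 0.838 and 0.593 within HGA (0.665, 0.849 and 0.352 without HGA 4 and HGA 10) and 0.568, 0.231 and 0.637 within primary AGASAC.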

How the data were processed

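The authors prepared 3′ tag libraries (QuantSeq) from RNA of 25 FFPE tumor samples. Per the labels and the study's methods, the authors trimmed reads with Cutadapt, aligned them to CanFam3.1 with STAR and counted them per gene with featureCounts, run again with gene ends extended. The deposited values used here are raw counts per gene. The deposited table also holds normalized counts and their mean (a signal, counts divided by size factors by the authors), the log2 fold change of the authors' comparison, its standard error (a score) and p-values, none of which were used. Genes are named as in the table, without coordinates or sequences, since no genome or annotation of that build was used here.

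The raw counts went through edgeR 4.0.16 (R 4.3.3): filterByExpr (minimum count 10, minimum total 15), TMM scaling and the quasi-likelihood test without covariates, fitted to the samples of each comparison and checked on simulated data. p-values were adjusted by Benjamini-Yekutieli over all genes tested. SE is the log2FC divided by the root of F, and intervals are 1.96 SE to each side. A sample-level CPM uses TMM factors over 25 samples, and logarithms a pseudocount of 1. Correlations were tested with 100000 two-sided permutations. All pairs of a group differed in a chi-square test (at least 12.2 per degree of freedom), so none was a duplicate. The metastasis and primary tumor of a dog share the animal by the labels. Their deviations were taken from the means of the 4 metastases and of the 4 matched primary tumors. These deviations correlated at 0.424 to 0.710 in 4 of 4 dogs.

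The enzymes and gene lists were chosen with earlier results of these data known. From each list, up to the 3 called genes with the largest log2FC in each direction are named, and the steroid receptors are given, of which 1 is not reported here. Alternatives were DESeq2 1.42.0, RLE or no scaling factor, other filters and adjustments, covariates, batches, blocks, subsets of dogs and leaving out single samples. Leaving out both HGA 4 and HGA 10, the naming series (read from the sequencing file names, not given for AGASAC primary 4) and the comparison of sexes were added after the data were seen.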

Additional observations from a re-analysis of the deposited data

Results flagged for a closer look

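The enzymes and receptors were screened in groups of 4 to 10 samples for a sample far from the others (Dixon's criterion). This gave 71 combinations of a gene and a group. 11 were found. The nominal rate of 1 in 20, or 3.55, holds only for normally distributed values in independent groups. Here the criterion was applied to CPM, several genes had few or no counts, and the groups shared samples. HSD11B1 in HGA 10 and HSD17B11 in HGA 9 were each found in more than 1 group. The 11 are therefore a description, and their number cannot be set against chance. HSD11B1 in HGA 10 (72.2 CPM) stood apart among all HGA, where the next value was 27.1 CPM, and among neutered HGA, where it was 2.26 CPM. HSD11B1 in HGA 4 (27.1 CPM) stood apart among intact HGA, where the next was 0.607 CPM. HSD17B11 in HGA 9 (16.1 CPM) stood apart among all HGA (next 4.52 CPM) and among intact HGA (next 4.30 CPM). NR3C2 in HGA 10 was 164 CPM, above 65.5 to 79.4 CPM in the other neutered HGA. PGR in AGASAC primary 1 was 4.82 CPM, above 1.11 to 1.63 CPM in the other 3 matched primary tumors.

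The remaining 4 rest on 1 to 5 counts against 0 in the other samples: HSD17B2 in HGA 2 among neutered HGA (2.26 CPM), and, among the 4 metastases or 4 matched primary tumors, ESR2 in metastasis 1 (0.324 CPM), HSD11B1 in AGASAC primary 2 (0.654 CPM) and HSD17B2 in the same tumor (0.327 CPM).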

How the results depend on the processing

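Of 534 log2FCs of single enzymes under the alternatives, 508 stayed called or not called as reported, and 26 kept the direction and lost the call. Of the 508, 14 changed sign while called in neither fit, and no called value changed sign. In HGA versus AGASAC, 5 enzymes were called in every fit that left out a sample, and 5 to 6 of the other steroid enzymes. The number changed to 3 (other steroid enzymes 2) with at least 10 counts required in every sample, where DHRS2 and HSD11B2 are not tested, and to 2, 2 and 3 (other steroid enzymes 2, 3 and 0) within extraction batches 5, 6 and 8, which hold 5 or 6 samples each. In metastases versus HGA it was 3 with at least 10 counts in every sample, 3 to 5 with a sample left out, and 4 with library size alone, where SRD5A3 lost its call. In the comparisons of metastases with matched primary tumors and of intact with neutered dogs, 0 enzymes were called in every alternative run and with any sample left out. Between females and males 0 were called with DESeq2, the only other alternative run, and with any sample left out.

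With the dog as a replicate block, 0 enzymes and 1 gene were called between metastases and primary tumors. HGA and AGASAC share only sample numbers (correlations of deviations -0.06 to 0.04, 0 of 10 best with their own number). A replicate block on that number left 5 enzymes and 2543 genes in HGA versus AGASAC, and 2 enzymes and 662 genes in metastases versus HGA.

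Numbers of all genes called differed by more than 1.5 times from 3032 in HGA versus AGASAC with at least 10 counts in every sample (1452), in neutered dogs only (1738) and within batches (262, 637 and 338), and from 2124 in metastases versus HGA with DESeq2 (3211), at least 10 counts (1153) and Benjamini-Hochberg (3536). DESeq2 called 5 genes between metastases and primary tumors, 23 between intact and neutered dogs and 47, against 2, between the sexes. The share of calls that were higher moved from 50.2% to 32.8% in HGA versus AGASAC and from 47.8% to 63.7% in metastases versus HGA with library size alone. The cause of these changes was not tested. For SRD5A2, HSD17B1, HSD17B2, HSD17B11 and HSD11B1, differences of a few CPM were not detectable at these counts, and whether their 3′ ends are annotated far enough to be counted was not tested.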
